A study of Mus musculus with 12 samples.

Results

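The genes described here are the adenylyl cyclases and phosphodiesterases of mouse striatum. The cyclases make the second messenger cyclic AMP, and the phosphodiesterases break down cyclic AMP, cyclic GMP or both. The family was picked with earlier results of these data known, and its members were taken by name. They are every gene of the array table whose only symbol in the platform annotation is Adcy or Pde followed by a digit. This gave 36 genes, 10 adenylyl cyclases and 26 Pde names, measured by 38 probe sets, out of 19935 genes with a single-symbol probe set. Of the Pde names, 3 (Pde4dip, Pde6d and Pde12) match by name but encode no such phosphodiesterase. No filter on low values was applied, so all 36 were tested. For a gene with several probe sets the mean was taken, which here concerned Pde4d alone, with 3 probe sets.

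Each of the 12 Affymetrix Mouse Gene 1.0 ST arrays measured pooled striatal RNA of 4 male Swiss-Albino mice aged 2 months. The butyrate-morphine group (3 arrays) received sodium butyrate, an inhibitor of histone deacetylases, at 300 mg/kg just before each of 6 morphine injections of 20 mg/kg given on alternate days. The morphine group (3 arrays) received saline before the same morphine injections, and the saline group (6 arrays) received vehicle throughout this induction phase. All mice were challenged 7 days after induction, with the striatum collected 1 h after the challenge. Both morphine groups received morphine as challenge. For the saline group the labels conflict, with saline in the source names and morphine at 20 mg/kg for all animals in the protocol text, so whether a difference from saline includes the acute effect of the last dose cannot be told apart. The sources used here do not say if pools stem from different cohorts. The p-values therefore measure how far these pools differ, which may be partly technical.

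The deposited values are differences from a baseline, read here as log2. The saline arrays form mirror images in pairs (1 with 2, 3 with 4, 5 with 6): both values of a pair cancel within 1e-06 for each probe set. The saline mean and median are thus 0 for every gene, and only 3 of the 6 saline values are independent. Centring removed the level of each gene, and genes cannot be ranked by level. Only a coarse class can be inferred from the rounding of the numbers. A class of stored values of 8 or more was so inferred for 15 of the 36 members, against 5085 of all 19935 genes. It was also inferred for 8 of 10 measured markers of striatal projection neurons, the medium-sized spiny cells that make up most of this tissue. In bulk tissue, fewer cells of a type and less RNA per cell cannot be told apart.

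Adenylyl cyclases convert ATP into cyclic AMP when a stimulatory G protein is active, and inhibitory G proteins, those used by opioid and dopamine D2 receptors, hold them back. Cyclic AMP acts through protein kinase A, the exchange factors called Epac and ion channels, until phosphodiesterases hydrolyse it. In striatal projection neurons, dopamine D1 receptors and adenosine receptors drive the cyclase encoded by Adcy5 through the olfactory-type G protein Gnal, and the phosphodiesterase encoded by Pde10a is concentrated in the same cells. In other neurons and in cultured cells, prolonged opioid exposure is known for a later rebound of cyclase activity.

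Differences in the whole family were small. The butyrate-morphine differences from saline lay between -0.13 for Pde4dip and 0.16 for Pde3a on the log2 scale, and the morphine differences between -0.17 for Pde10a and 0.16 for Adcy8. The butyrate-morphine minus morphine differences lay between -0.22 for Adcy8 and 0.16 for Pde3b, with 95% intervals within 1.25-fold either way for 34 of the 36. The median over the 36 members was 0.00147 in butyrate-morphine and -0.013 in morphine arrays, beside 0.00629 and -0.00356 over all genes. The 95% intervals of the differences from saline stayed within 1.25-fold either way for all 36 members in the butyrate-morphine arrays and for 35 in the morphine arrays, the exception being Adcy8. These intervals count all 6 saline arrays. With 1 saline array kept of each mirror pair, 33 of 36 stayed within that bound in the butyrate-morphine arrays under either choice, and 35 or 34 in the morphine arrays. With saline arrays 1, 3 and 5 the bound was passed by Adcy8, Pde1a and Pde3a with butyrate-morphine and by Adcy1 with morphine. With saline arrays 2, 4 and 6 it was passed by Adcy9, Pde1a and Pde4d with butyrate-morphine and by Adcy8 and Pde1a with morphine. Among the arrays of a group, the median SD over members was 0.0627 in butyrate-morphine, 0.0908 in morphine and 0.0585 in saline arrays. Over all genes it was 0.0553, 0.0756 and 0.0609. The saline SD is taken over mirrored values, so it is not the same measure as that of the treated arrays.

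**Figure D1:**
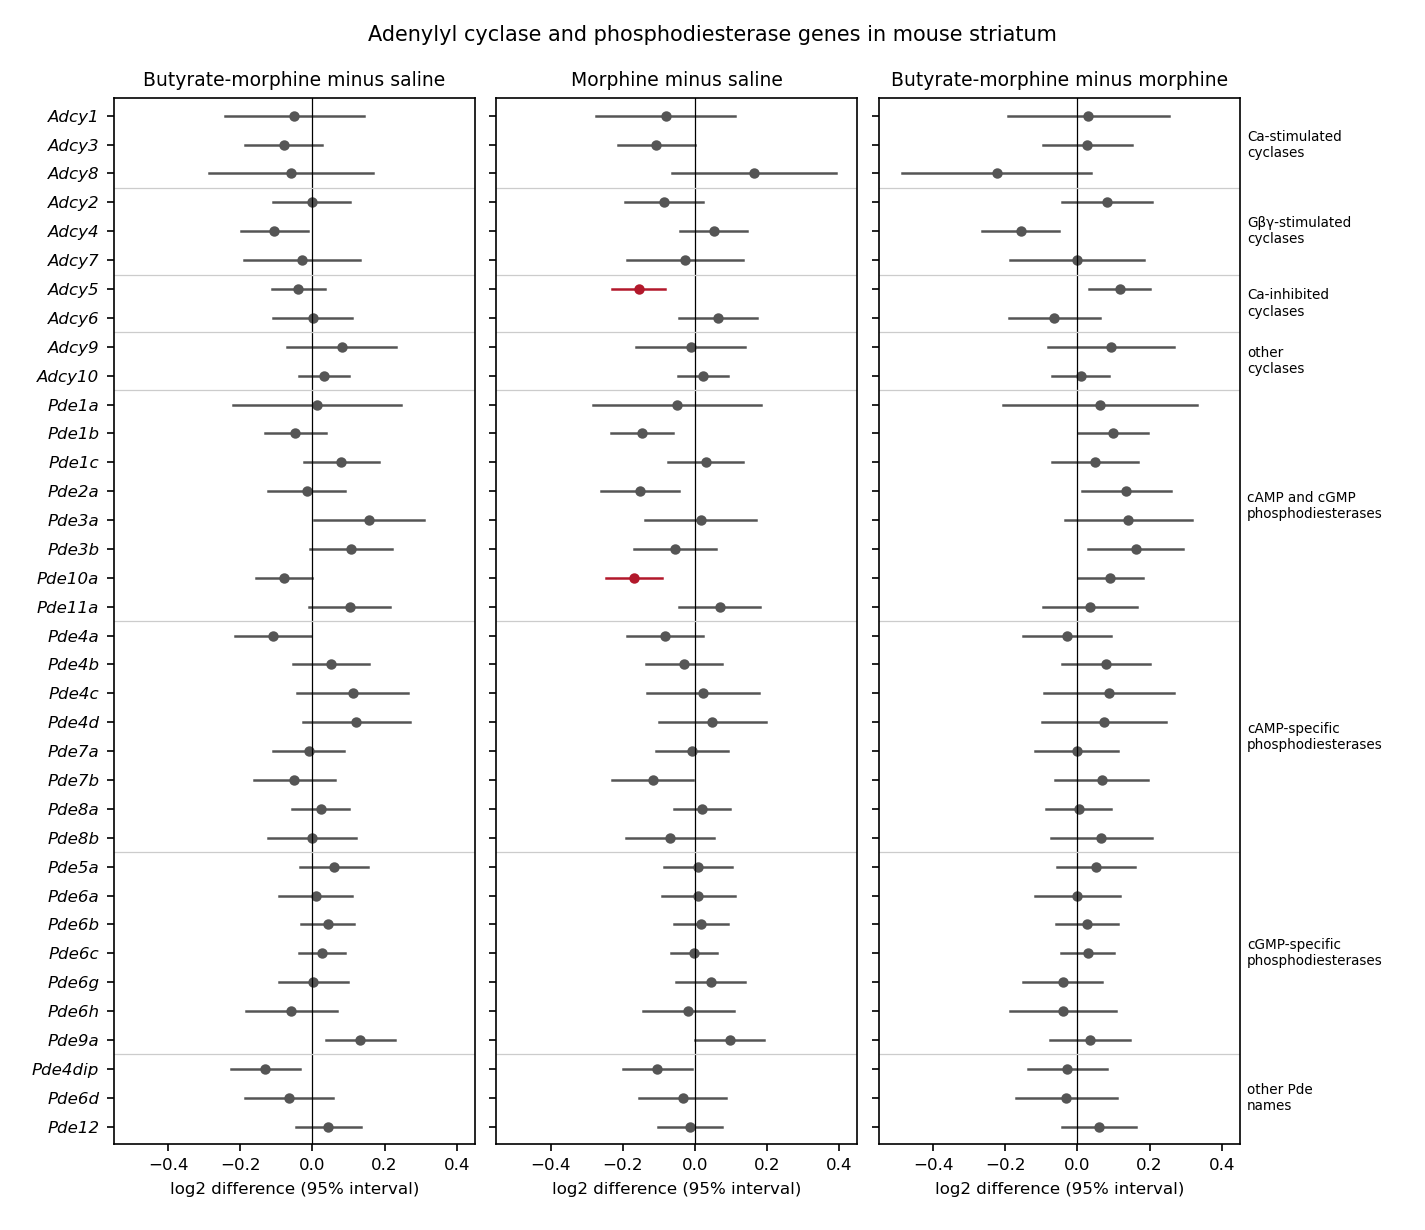
Log2 differences between groups (x axis) for the 36 genes (rows, ordered by subfamily), with points for the estimates and bars for 95% intervals from the limma fit. Red marks adjusted p under 0.05, which only Adcy5 and Pde10a reached, both in morphine against saline.

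The comparison of morphine with saline asks which members differed after repeated morphine without butyrate. Adcy5 and Pde10a were lower, to 0.897 and 0.89 of the saline level, and no other member passed. That is 2 of 36 members (5.56%), against 2.66% of all genes, of which 1.37% passed as higher and 1.29% as lower. At an unadjusted p under 0.05 there were 8 members (22.2%), against 15.5% of all genes. The 7 lower ones (19.4%, against 8.73% of all genes) were Adcy5, Pde10a, Pde1b, Pde2a, Pde7b, Adcy3 and Pde4dip, and the single higher one was Pde9a, against 6.81% of all genes.

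Adcy5, the main cyclase of striatal projection neurons, stood at -0.084, 0.0036 and -0.0375 in the butyrate-morphine arrays, -0.14, -0.11 and -0.22 in the morphine arrays, and between -0.043 and 0.043 in the saline arrays. All morphine arrays were below all saline arrays, while the butyrate-morphine arrays overlapped saline. Adcy5 fell to 0.897 of saline with morphine (-0.16 ± 0.055, SD, n = 3, limma adjusted p = 0.0301). With butyrate-morphine it was at 0.973 of saline (-0.039 ± 0.044, SD, n = 3, adjusted p = 0.625).

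Pde10a, whose enzyme hydrolyses both cyclic AMP and cyclic GMP, was at -0.066, -0.055 and -0.11 in the butyrate-morphine arrays, -0.12, -0.15 and -0.24 in the morphine arrays, and between -0.058 and 0.058 in the saline arrays. The morphine arrays were again below every saline array, butyrate-morphine arrays 1 and 3 were also below the saline range, and butyrate-morphine array 2 was inside it. Pde10a fell to 0.89 of saline with morphine (-0.17 ± 0.060, SD, n = 3, limma adjusted p = 0.0258) and was at 0.947 of saline with butyrate-morphine (-0.078 ± 0.031, SD, n = 3, adjusted p = 0.291).

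Both calls depended on single arrays. Without morphine array 3, the array with the lowest value of both genes, the difference was -0.13 for Adcy5 (adjusted p = 0.14) and -0.14 for Pde10a (adjusted p = 0.126). Adcy5 also missed the threshold without saline array 1, 2, 3, 4 or 6, with adjusted p between 0.0539 and 0.0657, and Pde10a without saline array 2 or 4, at 0.06 and 0.0561. With 1 saline array kept of each mirror pair, neither gene passed, with adjusted p of 0.218 and 0.106 for Adcy5 and 0.198 and 0.0931 for Pde10a, depending on which array of each pair was kept.

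The 250 bases upstream of the annotated starts of these 2 genes are shown because they are the members that passed. They are from the RefSeq promoter table of build GRCm38.p6, which matched 27 of the 36 members, and capitals mark the GC box (GGGCGG or its reverse complement CCGCCC), the site bound by Sp-family factors. The positions are chr16:35154614-35154863 on the plus strand for Adcy5, and chr17:8801495-8801744 and chr17:8849735-8849984 on the plus strand for the first and the second start of Pde10a.
Adcy5: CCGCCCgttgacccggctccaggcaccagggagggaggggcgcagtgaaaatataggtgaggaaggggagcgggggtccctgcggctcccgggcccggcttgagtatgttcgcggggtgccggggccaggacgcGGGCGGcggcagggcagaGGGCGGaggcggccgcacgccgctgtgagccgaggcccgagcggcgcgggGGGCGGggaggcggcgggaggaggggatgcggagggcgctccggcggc
Pde10a, first start: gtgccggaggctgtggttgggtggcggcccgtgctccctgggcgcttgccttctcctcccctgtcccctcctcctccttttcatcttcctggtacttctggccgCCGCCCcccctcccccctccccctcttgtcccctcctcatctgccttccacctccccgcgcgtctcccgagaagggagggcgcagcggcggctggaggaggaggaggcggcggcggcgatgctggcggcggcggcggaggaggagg
Pde10a, second start: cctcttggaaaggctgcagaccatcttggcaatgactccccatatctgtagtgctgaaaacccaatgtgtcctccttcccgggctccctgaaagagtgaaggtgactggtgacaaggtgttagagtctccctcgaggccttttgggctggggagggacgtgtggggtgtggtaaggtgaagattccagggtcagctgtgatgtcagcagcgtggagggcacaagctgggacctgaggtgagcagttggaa

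The Adcy5 window is 78% G or C and holds 4 GC boxes, the first Pde10a window 72.8% with 1, and the second 56% with 0. On either strand a GC box is present in 32.7% of all 32851 promoter windows of this length and in 34.6% of the 52 windows of members. The cyclic AMP response element (TGACGTCA) is in 1.55% of all windows and in 0 of the 52, and its core (TGACG), which that element contains, is in 17.8% of all windows and in 13.5% of those of members. The AP-1 site bound by Fos and Jun (TGANTCA) is in 6.75% of all windows and in 7.69% of those of members. None of these last 3 motifs is in the printed windows, which says only that those letters are not there.

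Other phosphodiesterases known from striatal neurons were named whatever their values. Pde1b, a calcium- and calmodulin-activated enzyme of these neurons, was at -0.12, 0.026 and -0.051 in butyrate-morphine arrays, -0.10, -0.15 and -0.18 in morphine arrays and between -0.0485 and 0.0485 in saline arrays. Its morphine arrays did not overlap saline, but its difference of -0.15 did not pass (adjusted p = 0.0716). Pde2a, whose enzyme is stimulated by cyclic GMP, was at -0.097, 0.10 and -0.056 in butyrate-morphine arrays, -0.039, -0.20 and -0.22 in morphine arrays and between -0.034 and 0.034 in saline arrays. Morphine array 1 was close to saline and the other two were clearly lower, and the difference of -0.15 did not pass (adjusted p = 0.134). Without morphine array 1 it was -0.21 with adjusted p = 0.0308.

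Pde7b, a cyclic AMP-specific enzyme abundant in striatum, was at -0.045, -0.033 and -0.073 in butyrate-morphine arrays, -0.0385, -0.088 and -0.23 in morphine arrays and between -0.09 and 0.09 in saline arrays. The groups overlapped and the morphine difference of -0.12 did not pass (adjusted p = 0.291). All 5 of these genes thus had negative morphine differences, as did 10400 of all 19935 genes. Their median was -0.152, and all but Pde7b had morphine arrays wholly below saline. Those 4 are the only members whose morphine and saline arrays did not overlap (11.1%), against 8.2% of all genes, 3.84% above and 4.35% below saline. The genes were listed with earlier values of Adcy5 and Pde10a known, so their shared direction is a description.

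**Figure D2:**
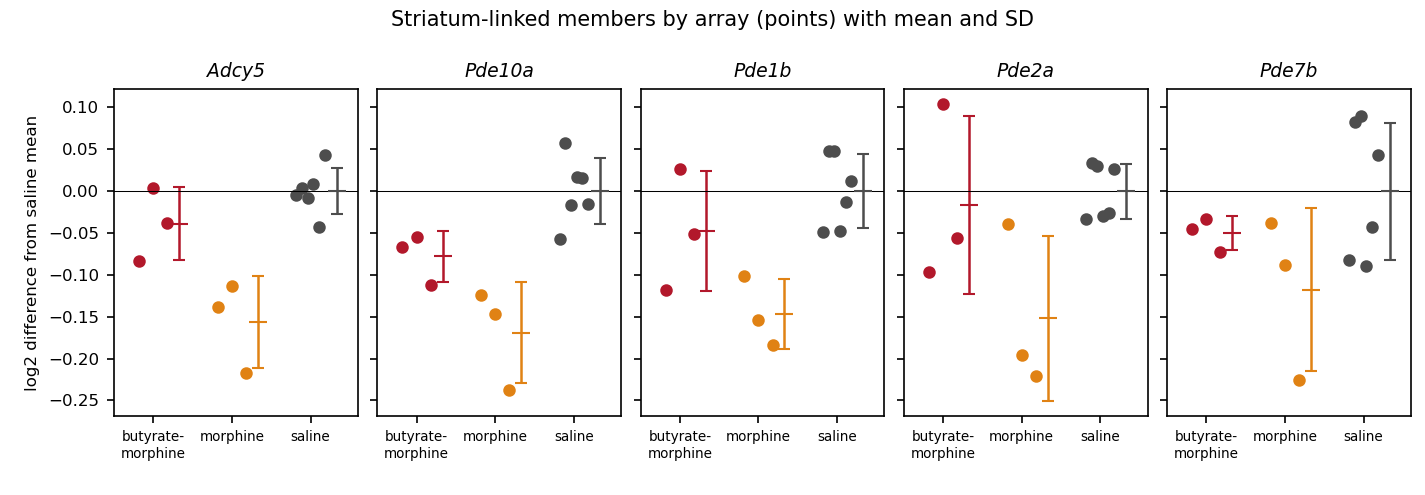
Log2 difference from the saline mean (y axis) of 5 members known from striatal neurons in each array, by group, with bars for mean and SD. Morphine arrays lie below all saline arrays for Adcy5, Pde10a, Pde1b and Pde2a, and overlap them for Pde7b.

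Markers of striatal projection neurons had negative differences in the same arrays. Of the 10 measured, all 10 had negative morphine differences, as did 10400 of all 19935 genes, and their median was -0.137. Of these markers 2 passed, Bcl11b (-0.29, adjusted p = 0.00197) and Drd2 (-0.16, adjusted p = 0.0388), against 2.66% of all genes. The mean over the 10 markers was -0.055, -0.0069 and 0.015 in butyrate-morphine arrays, -0.12, -0.14 and -0.18 in morphine arrays, and between -0.047 and 0.047 in saline arrays. The mean of the 5 genes above was -0.082, 0.0093 and -0.066 in butyrate-morphine arrays and -0.088, -0.14 and -0.22 in morphine arrays, within -0.045 to 0.045 in saline arrays. In both means morphine array 3 was the lowest of the 12, and the part of the marker difference in the gene differences was not tested.

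Markers of tissue next to the striatum also differed between arrays. The mean of 6 cortical excitatory neuron markers was -0.019, 0.17 and 0.0046 in butyrate-morphine arrays, 0.14, -0.60 and -0.27 in morphine arrays and within -0.033 to 0.033 in saline arrays. None of the 6 passed in morphine against saline. The mean of 8 thalamic or septal markers was 0.45, -0.047 and 0.25 in butyrate-morphine arrays, 0.13, 0.52 and 0.66 in morphine arrays and within -0.065 to 0.065 in saline arrays. Of these 8, 3 rose in morphine arrays, against 1.37% of all genes. All 9 choroid plexus markers rose in morphine arrays and 8 of 9 in butyrate-morphine arrays, against 1.37% and 1.85% of all genes. Their means were 0.87 to 1.17 in butyrate-morphine, 1.21 to 1.44 in morphine and -0.13 to 0.13 in saline arrays. Of 7 microglia markers, 2 fell with butyrate-morphine and 3 with morphine, against 0.637% and 1.29% of all genes. Of 7 astrocyte markers 1 rose in each, against 1.85% and 1.37% of all genes. Of 8 pericyte and smooth muscle markers 0 and 1 fell, and 0 oligodendrocyte or interneuron markers passed. The part of these cells in the members' values was not tested.

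Of the calcium-stimulated cyclases, which couple neuronal activity to cyclic AMP, Adcy1 and Adcy8 had the widest intervals of all cyclases. Adcy1, a calmodulin-stimulated cyclase known from cortex and hippocampus, was at -0.084, 0.061 and -0.13 in butyrate-morphine arrays, 0.16, -0.36 and -0.05 in morphine arrays and between -0.11 and 0.11 in saline arrays. Adcy8, which is also calmodulin-stimulated, was at 0.19, -0.14 and -0.23 in butyrate-morphine arrays, 0.0094, 0.24 and 0.24 in morphine arrays and between -0.24 and 0.24 in saline arrays. Neither passed with butyrate-morphine (-0.05 and -0.060) or with morphine (-0.081 and 0.16), and the arrays of each group overlapped the others. Adcy8 had the largest butyrate-morphine minus morphine difference of all members, -0.22 with an interval of -0.49 to 0.039, and did not pass (limma adjusted p = 0.643). Adcy3, the cyclase of olfactory neurons and neuronal cilia, was at -0.08 with butyrate-morphine and -0.11 with morphine and did not pass (adjusted p = 0.459 and 0.319).

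Array 2 of the morphine group was the lowest of the 12 for Adcy1, for Adcy2 (-0.22) and for the calcium-activated phosphodiesterase Pde1a (-0.39), and it was also the lowest for the cortical marker mean. These genes were picked after their values were seen. Pde1a was at -0.082, 0.22 and -0.094 in butyrate-morphine arrays, 0.23, -0.39 and 0.013 in morphine arrays and between -0.093 and 0.093 in saline arrays. It thus had the widest interval among the members, 0.013 with an interval of -0.22 to 0.25 for butyrate-morphine and -0.05 with one of -0.28 to 0.18 for morphine. The part of cortical tissue in these values was not tested.

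**Figure D3:**
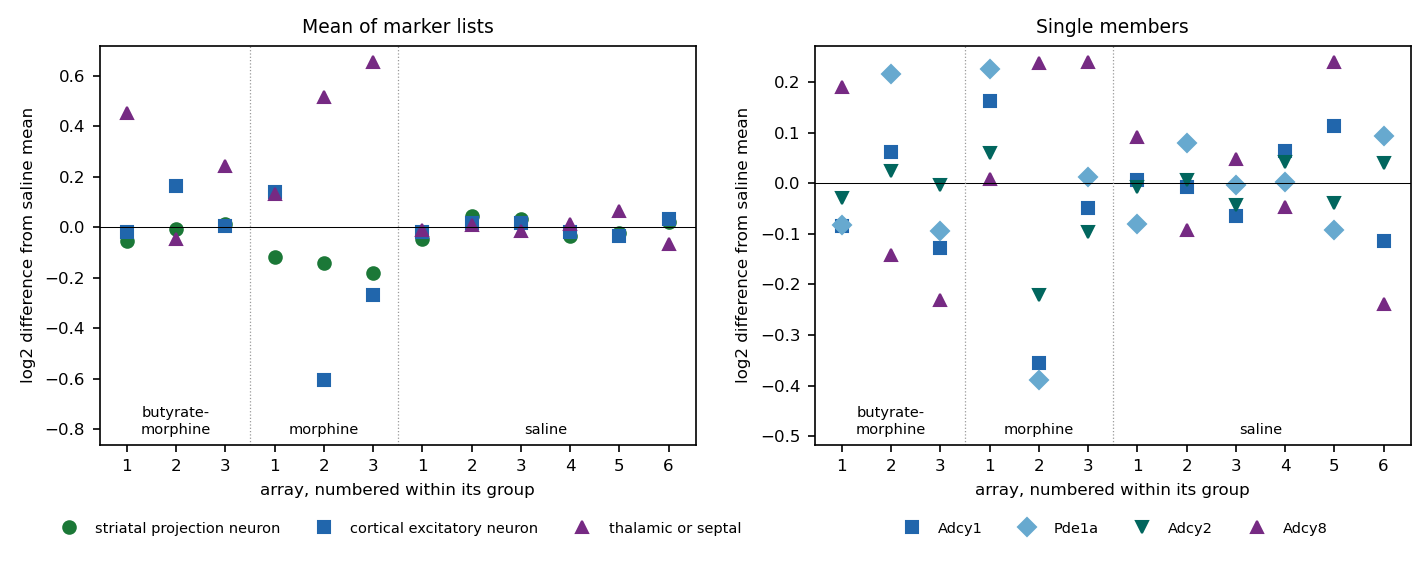
Log2 difference from the saline mean (y axis) in each of the 12 arrays (x axis) for the means of 3 marker lists (left) and for 4 members (right). Morphine array 2 has the lowest cortical marker mean, at -0.60, and the lowest values of Adcy1, Adcy2 and Pde1a.

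In the comparison of butyrate-morphine with saline, which asks the same question of mice given butyrate during induction, none of the 36 members passed in the limma fit, against 2.48% of all genes, 1.85% as higher and 0.637% as lower. At an unadjusted p under 0.05 there were 6 members (16.7%), 2 higher and 4 lower, against 17% of all genes, 10.5% higher and 6.44% lower. Besides Pde10a these were Pde9a, Pde3a, Pde4dip, Adcy4 and Pde4a. Pde4dip was the single member whose butyrate-morphine arrays all lay outside the saline range, with values below saline, a separation seen for 11.7% of all genes, 7.1% above and 4.55% below.

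Pde9a, a cyclic GMP-specific enzyme with high affinity for its substrate, was at 0.17, 0.19 and 0.043 in butyrate-morphine arrays, 0.032, 0.12 and 0.14 in morphine arrays and between -0.073 and 0.073 in saline arrays. All 6 arrays of morphine-treated mice were above 0, with 1 array of each group inside the saline range. The difference was 0.13 with butyrate-morphine (adjusted p = 0.145) and 0.097 with morphine (adjusted p = 0.317). Pde3a, whose enzyme is inhibited by cyclic GMP and is known from heart, vessels and platelets, was at 0.13, 0.16 and 0.18 in butyrate-morphine arrays, 0.015, 0.11 and -0.073 in morphine arrays and between -0.22 and 0.22 in saline arrays. Its butyrate-morphine arrays were close together but inside the wide saline range (0.16, adjusted p = 0.28).

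Pde4dip, which matches the naming rule but encodes myomegalin, a centrosome and Golgi protein that binds a phosphodiesterase, was at -0.091, -0.16 and -0.15 in butyrate-morphine arrays, 0.0008, -0.096 and -0.22 in morphine arrays and between -0.048 and 0.048 in saline arrays. Its difference was -0.13 with butyrate-morphine (adjusted p = 0.149) and -0.10 with morphine (adjusted p = 0.271). With only the butyrate-morphine and saline arrays in the fit, the first had adjusted p = 0.0484. Pde4a, a cyclic AMP-specific enzyme of the rolipram-sensitive family, was at -0.074, -0.048 and -0.21 in butyrate-morphine arrays, 0.0077, -0.18 and -0.078 in morphine arrays and between -0.0635 and 0.0635 in saline arrays. Its differences of -0.11 and -0.082 did not pass (adjusted p = 0.27 and 0.465).

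The comparison of butyrate-morphine with morphine asks what differed when butyrate was given before each morphine injection. No group received butyrate without morphine, so an effect of butyrate alone and a changed response to morphine cannot be told apart. None of the 36 members passed in the limma fit, and neither did any of the 19935 genes (0%). At an unadjusted p under 0.05 there were 6 members (16.7%), 5 higher and 1 lower in butyrate-morphine, against 8.62% of all genes, 6.36% higher and 2.26% lower. Arrays of the groups did not overlap for 6 members (16.7%), with Adcy5, Pde10a, Pde12, Pde1c and Pde3a above and Adcy4 below, against 10.7% of all genes, 7.75% above and 2.99% below. The 5 higher by the unadjusted p were Adcy5, Pde10a, Pde1b, Pde2a and Pde3b, and the lower one was Adcy4. These differences use the same morphine arrays as the comparison with saline, so they are not independent of it.

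For Adcy5 the butyrate-morphine arrays were all above the morphine arrays, with a difference of 0.12 and an interval of 0.032 to 0.20 (adjusted p = 0.421). Pde10a was separated in the same way, with 0.091 and an interval of 0.0016 to 0.18 (adjusted p = 0.569). Pde1b differed by 0.099 (adjusted p = 0.576) and Pde2a by 0.14 (adjusted p = 0.533), with overlapping arrays, and Pde7b by 0.067 (adjusted p = 0.813). The butyrate-morphine minus morphine difference was positive for all 10 striatal projection neuron markers, as for 11344 of all 19935 genes. The marker median was 0.138, beside 0.0987 for the 5 striatum-linked members and 0.0106 over all genes.

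Pde3b, the cyclic GMP-inhibited enzyme known from insulin action in fat and liver, was at 0.18, 0.11 and 0.032 in butyrate-morphine arrays, -0.081, -0.15 and 0.063 in morphine arrays and between -0.099 and 0.099 in saline arrays. The butyrate-morphine minus morphine difference was 0.16 with overlapping arrays (adjusted p = 0.48). Adcy4, a cyclase stimulated by the beta-gamma subunits of G proteins and known from endothelium, was at -0.059, -0.20 and -0.0555 in butyrate-morphine arrays, 0.012, 0.096 and 0.049 in morphine arrays and between -0.0605 and 0.0605 in saline arrays. All butyrate-morphine arrays were below 0 and all morphine arrays above it. The difference was -0.16, with an interval of -0.26 to -0.051 (adjusted p = 0.391).

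Of 8 measured endothelial markers, 4 fell in butyrate-morphine arrays (0.637% of all genes) and 4 in morphine arrays (1.29% of all genes). These were Kdr, Cldn5, Tek and Flt1 in both. The other 4 did not pass, with Pecam1 at 0.081 with butyrate-morphine and -0.15 with morphine. The mean of the 8 was -0.16, -0.25 and -0.26 in butyrate-morphine arrays, -0.33, -0.25 and -0.30 in morphine arrays and within -0.052 to 0.052 in saline arrays. Adcy4 was below 0 with butyrate-morphine and above 0 with morphine, and the part of vessel cells in its values was not tested.

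By subfamily, the enzymes that hydrolyse both cyclic nucleotides (Pde1a, Pde1b, Pde1c, Pde2a, Pde3a, Pde3b, Pde10a and Pde11a) had a median difference of 0.0466 with butyrate-morphine and -0.0524 with morphine. Of these 8, 0 and 1 were called, against 2.48% and 2.66% of all genes. All 8 had a positive butyrate-morphine minus morphine difference, as did 11344 of all 19935 genes. The median of the 8 was 0.0949, beside 0.0106 over all genes. The 8 cyclic AMP-specific enzymes of the Pde4, Pde7 and Pde8 families had medians of 0.0105 with butyrate-morphine and -0.019 with morphine, and none was called.

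The 3 probe sets of Pde4d, a gene with many start sites, differed in their spread. The most variable was at 0.55, 0.14 and 0.14 in butyrate-morphine arrays and 0.36, -0.34 and 0.27 in morphine arrays, and another at 0.021, -0.056 and -0.015 in butyrate-morphine arrays and 0.11, -0.042 and -0.047 in morphine arrays. None of the 3 passed in any comparison, the lowest adjusted p being 0.351. The mean of the probe sets gave 0.12 with butyrate-morphine and 0.049 with morphine.

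The 7 genes of cyclic GMP-specific enzymes (Pde5a, Pde9a and the photoreceptor genes Pde6a, Pde6b, Pde6c, Pde6g and Pde6h) had medians of 0.0256 with butyrate-morphine and 0.0096 with morphine. None was called, and none had a probe set with stored values of 8 or more. Their Pde6 members encode the enzyme of rods and cones, and Pde6c had the narrowest interval of all members, 0.0636 either side. Among the remaining cyclases, Adcy2 and Adcy7, both known to respond to beta-gamma subunits, were at -0.0026 and -0.029 with butyrate-morphine and -0.085 and -0.028 with morphine. Adcy6, the closest relative of Adcy5, was at 0.064 with morphine, opposite in sign to Adcy5, and did not pass. Adcy9, Adcy10 (the soluble, bicarbonate-sensitive cyclase), Pde12 and Pde6d did not pass in any comparison. The last 2 are no cyclic nucleotide phosphodiesterases: the first encodes a mitochondrial enzyme that shortens RNA tails and the second a carrier of prenylated proteins.

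Other genes of the pathway were taken from lists, with 74 of 81 listed genes measured. With butyrate-morphine 1 of the 74 rose and 0 fell, and with morphine 1 rose and 4 fell, beside 2.48% and 2.66% called over all genes. Their median was -0.00791 with butyrate-morphine and -0.0262 with morphine. None passed in butyrate-morphine against morphine. At an unadjusted p under 0.05 there were 12 of the 74 with butyrate-morphine (17% of all genes), 22 with morphine (15.5% of all genes) and 10 in butyrate-morphine against morphine (8.62% of all genes).

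The riser was Rapgef3, which encodes Epac1, an exchange factor for the small GTPase Rap that cyclic AMP opens. It was at 0.22, 0.18 and 0.15 in butyrate-morphine arrays, 0.19, 0.165 and 0.17 in morphine arrays and between -0.096 and 0.096 in saline arrays. All 6 arrays of morphine-treated mice were above all saline arrays. It rose by 0.19 with butyrate-morphine (adjusted p = 0.0365) and by 0.17 with morphine (adjusted p = 0.0458). The first call was lost without any butyrate-morphine array or without saline array 2, 3, 4 or 5 (adjusted p up to 0.148), and the second without every array other than saline array 1 (up to 0.126). With 1 saline array kept of each mirror pair, adjusted p was 0.162 and 0.0773 for the first and 0.212 and 0.0815 for the second.

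Of 5 measured inputs that stimulate the cyclase, 2 passed with morphine, against 2.66% of all genes. Gnal, the alpha subunit that couples dopamine D1 and adenosine receptors to Adcy5, and Gnb2, a beta subunit gene, fell, while Drd1, Ric8b and the gamma subunit gene Gng7 did not pass. Gnal was at -0.041, -0.076 and -0.16 in butyrate-morphine arrays, -0.17, -0.27 and -0.13 in morphine arrays and between -0.079 and 0.079 in saline arrays, and it fell by 0.19 with morphine (adjusted p = 0.0359). Gnb2 was at -0.099, -0.012 and -0.056 in butyrate-morphine arrays, -0.18, -0.10 and -0.14 in morphine arrays and between -0.05 and 0.05 in saline arrays, and it fell by 0.14 with morphine (adjusted p = 0.0419). For both, all morphine arrays were below all saline arrays. Gnal was lost without morphine array 2 or 3 or without saline array 2, 3, 4, 5 or 6 (adjusted p up to 0.107). Gnb2 was lost without butyrate-morphine array 3, morphine array 1 or 3, or saline array 1, 2, 4, 5 or 6 (up to 0.126). The dopamine receptor Drd1 (-0.19) and the G protein chaperone Ric8b (-0.23) had morphine arrays below saline but did not pass (adjusted p = 0.115 and 0.0595), and Gng7 was at -0.075 with overlapping arrays (adjusted p = 0.562). With 1 saline array kept of each mirror pair, neither call held, with adjusted p of 0.212 and 0.103 for Gnal and 0.237 and 0.13 for Gnb2.

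Of 11 measured inputs that inhibit the cyclase, the cannabinoid receptor Cnr1 and the dopamine receptor Drd2 fell with morphine, against 1.29% of all genes. Cnr1 was at -0.20, -0.18 and -0.26 in butyrate-morphine arrays, -0.23, -0.20 and -0.49 in morphine arrays and between -0.11 and 0.11 in saline arrays. Its morphine difference was -0.31 (adjusted p = 0.0224), and without morphine array 3 it was -0.21 (adjusted p = 0.0908). Drd2 was at -0.067, -0.096 and 0.031 in butyrate-morphine arrays, -0.13, -0.19 and -0.15 in morphine arrays and between -0.053 and 0.053 in saline arrays. It was lost without morphine array 2 or 3 or saline array 1, 2, 3, 5 or 6 (adjusted p up to 0.113), and also with median centring (0.0538), array weights (0.0625) and quantile normalization (0.422). With 1 saline array kept of each mirror pair, adjusted p was 0.152 and 0.196 for Drd2, and 0.192 and 0.0437 for Cnr1, the last with saline arrays 2, 4 and 6. The mu opioid receptor Oprm1, on which morphine acts, was at -0.052 with butyrate-morphine and -0.041 with morphine and did not pass (adjusted p = 0.697 and 0.811, chosen for its role). The list's median was 0.0196 with butyrate-morphine and -0.0559 with morphine.

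The remaining lists had 0 genes called in any comparison by limma. Among 8 measured genes of protein kinase A and its inhibitors the lowest p-values were those of the inhibitor Pkia (-0.10 with butyrate-morphine, adjusted p = 0.113) and of the regulatory subunit Prkar2a (0.21 with morphine, adjusted p = 0.142). Among 14 A-kinase anchors, which tether the kinase, Akap1 was at -0.15 with butyrate-morphine (adjusted p = 0.0558) and Akap12 at 0.19 with morphine (adjusted p = 0.0972). At an unadjusted p under 0.05, a level reached by 17% of all genes with butyrate-morphine and 15.5% with morphine, the kinase list held 2 of 8 genes with butyrate-morphine and 2 with morphine, and the anchor list 2 and 5 of 14. In butyrate-morphine against morphine the kinase list held 1, the anchor list 0, the kinase targets 2 and the cyclic GMP list 0, against 8.62% of all genes. In that comparison the stimulating inputs held 3 of 5, the inhibiting inputs 4 of 11 and the list of Rapgef3 0. The lowest p-values of the inhibiting inputs were those of the receptor genes Oprk1 (0.28, limma adjusted p = 0.309) and Chrm4 (0.28, limma adjusted p = 0.341), and neither passed.

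Of 10 targets of the kinase and controls of its phosphatase, 4 had an unadjusted p under 0.05 with butyrate-morphine (17% of all genes) and 6 with morphine (15.5% of all genes). Ppp1r1b, which encodes DARPP-32, the striatal inhibitor of protein phosphatase 1 that protein kinase A switches on, was at 0.023, 0.16 and 0.064 in butyrate-morphine arrays, -0.13, -0.11 and -0.11 in morphine arrays and between -0.059 and 0.059 in saline arrays. All its butyrate-morphine arrays were above all morphine arrays (0.20, adjusted p = 0.25). Crtc1, a coactivator of CREB, was at -0.15 with morphine (adjusted p = 0.0931). Of 19 cyclic GMP makers and receivers, 0 had an unadjusted p under 0.05 with butyrate-morphine and 1 with morphine, against the same shares of all genes, with Gucy1a1, a subunit of the nitric oxide-sensitive guanylyl cyclase, at -0.10 (adjusted p = 0.261) and the natriuretic peptide receptor Npr2 at 0.11 (adjusted p = 0.33) with morphine.

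**Figure D4:**
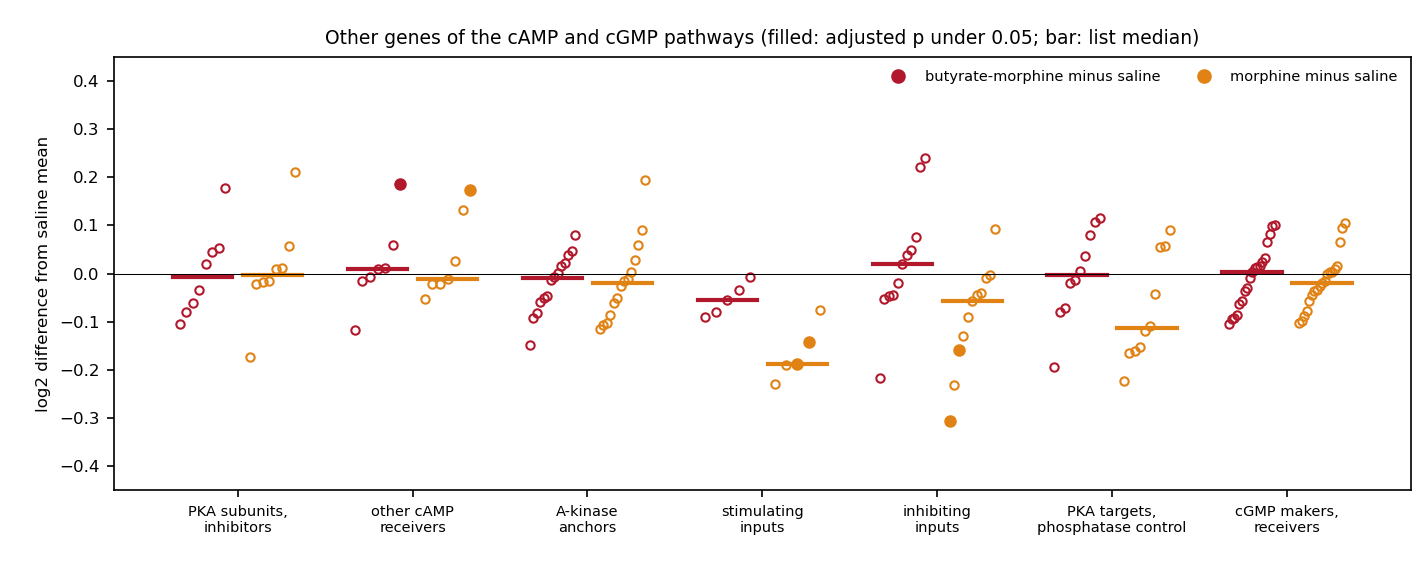
Log2 differences from the saline mean (y axis) for the measured genes of 7 pathway lists (x axis), with filled points for adjusted p under 0.05 and bars for list medians. Filled points are Rapgef3 with butyrate-morphine and with morphine, and Gnal, Gnb2, Cnr1 and Drd2 with morphine.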

How the data were processed

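Per the labels' protocols, RNA of 4 animals was pooled per Affymetrix Mouse Gene 1.0 ST array. The deposited table holds 28815 rows of differences from a baseline that were taken as log2, since the sources used here give neither log base nor background correction, normalization or summary of probes. Direction was taken as deposited. Centring and the mirrored saline pairs were read from the values, and the saline arrays behind each treated array's baseline are unknown. Array medians over genes lay between -0.0172 and 0.0121.

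Of the rows, 21780 had 1 gene symbol in the platform annotation, 1605 several and 5430 none. Probe sets were averaged per gene. limma 3.58.1 in R 4.3.3 (lmFit, eBayes) was fitted to 19935 genes in all 12 arrays with 3 group means, with 9 residual and 3.99 prior degrees of freedom and a median residual SD of 0.0726. Benjamini-Hochberg adjustment ran over all genes of a comparison, with a threshold of 0.05, and intervals are at 95% from the same fit. The value of 9 takes all 6 saline arrays as independent, whereas the mirrored pairs leave only 3 independent saline values. Adjusted p-values from it may thus be too small and its intervals too narrow. The number of arrays limits the precision. The procedure was tested on simulated data with independent noise per gene, each treated array being centred on a saline pair. The real baselines are unknown and markers differed between real arrays, so that test does not cover these features. No outcome of that test is given here, and the calls above do not rest on it.

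The members and the lists were chosen with earlier results of these data known. Values in every array are given for members past the threshold in any comparison, the 5 with the lowest p in each, and Adcy5, Pde10a, Pde1b, Pde7b and Pde2a. From each pathway list the genes past the threshold are given, or else the 2 with the lowest p. Deviations from the group means in same-numbered arrays of the morphine groups had correlations of -0.12, -0.27 and -0.2. With same-numbered saline arrays they lay between -0.18 and 0.2. Differently numbered arrays were not compared, so these values cannot decide whether numbers pair the arrays. Numbers were not taken as pairs.

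Alternatives were median centring, quantile normalization, single probe sets, only stored values of 8 or more, robust eBayes, array weights, a fit of just the pair of groups compared, a replicate block, subsets of saline arrays, another threshold and each array left out.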

Additional observations from a re-analysis of the deposited data

How the results depend on the processing

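The 2 members called with morphine became 0 with quantile normalization, with the replicate block, with saline arrays 1 to 3 or 4 to 6 alone and with mirror pairs counted once (either choice), and 0 to 3 with 1 array left out. The replicate block rests on numbers that were not taken as pairs. With butyrate-morphine the count of 0 became 1 with only the groups compared, and stayed at 0 with any array left out. In butyrate-morphine against morphine it was 0 under all 25 alternatives. The 5 pathway genes called with morphine became 0 with quantile normalization, the replicate block and saline arrays 1 to 3 or 4 to 6 alone, 0 or 1 with mirror pairs counted once, 2 with array weights, 9 at an adjusted p under 0.1, and 0 to 8 with 1 array left out. The 1 called with butyrate-morphine became 0 with quantile normalization, the replicate block, either saline subset and mirror pairs counted once, 2 with median centring, 3 with array weights, 5 with only the groups compared, 5 at an adjusted p under 0.1, and 0 to 4 with 1 array left out. Subsets of saline arrays hold fewer samples. For the other changes the cause was not tested. Of 717 values of single genes under alternatives, 609 kept direction and call, 103 lost the call, 3 gained it and 2 turned sign. A result not called in the reported fit counts as kept while it stays uncalled. Of the called results with morphine, Adcy5 lost the call under 12 of 25 alternatives and Pde10a under 9. Cnr1, Drd2, Gnal and Gnb2 lost it under 6, 15, 14 and 15. Rapgef3 lost it under 13 of 24 with butyrate-morphine and 19 of 24 with morphine. Both sign changes were Pde2a with butyrate-morphine (-0.016), which was 0.024 without butyrate-morphine array 1, 0.0038 without array 3 and -0.0764 to 0.024 over all arrays left out. Over all genes, 51 to 997 were called with butyrate-morphine (495 as reported), 54 to 1018 with morphine (531) and 0 in butyrate-morphine against morphine under the 13 other alternatives, and 213 to 728, 240 to 1053 and 0 to 23 with 1 array left out.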
